A study of Mus musculus with 18 samples.

Results

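The collagen genes of the mouse spinal cord were taken as all genes whose symbol has the form of Col, a type number, a and a chain number, and whose level averaged at least 0.5 CPM (read counts scaled to library size) over 18 libraries. Of 44 such symbols in the count table, 39 reached that level, among 20635 genes tested and 54446 gene IDs in all. They comprised 11 fibrillar chains, 6 basement membrane chains (Col4a1 to Col4a6), 5 type VI chains, 9 FACIT chains (fibril-associated collagens with interrupted triple helices), 2 multiplexins, 2 transmembrane collagens, 2 short-chain network collagens and 2 others (Col7a1 and Col26a1). The 5 symbols below the level were Col6a5 with a mean of 0.455 CPM, Col13a1 with 0.418, Col28a1 with 0.251, Col17a1 with 0.120 and Col10a1 with 0.0441. The lowest members were Col4a3 with 0.749 CPM and Col6a4 with 0.906.

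A collagen molecule is a rope-like helix of chains that are hydroxylated, glycosylated and folded in the endoplasmic reticulum, secreted, trimmed and cross-linked. Fibrillar collagens build the fibers of meninges, vessel walls and nerve sheaths, FACIT collagens sit on those fibers, type IV collagens form the sheet of every basement membrane, and type VI collagens make beaded filaments next to it. In the cord these genes are known mainly from endothelial cells, pericytes and fibroblasts, and some are also known from glia and neurons.

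The mice were 10 months old and untreated, and RNA of the entire cord was sequenced for 3 animals of each genotype. Controls were non-transgenic C57BL/6 mice (NTg), and the animals of the other 5 genotypes were heterozygous knock-ins of human sequence: hATXN2-Q22 (Q22), hATXN2-Q33 (Q33), hTDP-43 (TDP-43), hATXN2-Q22 with hTDP-43 (Q22 double knock-in) or hATXN2-Q33 with hTDP-43 (Q33 double knock-in). Q22 and Q33 give the glutamines in the ATXN2 tract, 22 or 33. Whether animals of a genotype shared a litter was not given in the sources used here.

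Depth ran from 16061359 to 30978678 counts per library, so that 3 counts, the limit that a count of 0 allows, corresponded to 0.0968 to 0.187 CPM. Markers of neurons, oligodendrocytes and astrocytes had counts in every library. A library property that differed between genotypes was a caudal Hox score, the averaged log2 CPM of 6 Hox genes that mark the caudal cord (Hoxa10, Hoxc10, Hoxd10, Hoxa11, Hoxc11 and Hoxd11). It was 0.55 to 3.54 in the Q33 double knock-ins, 1.95 to 3.51 in 3 other libraries (Q33 2, Q33 3 and Q22 double knock-in 1) and -2.46 to -0.20 in the remaining 12. Mitochondrial ribosomal RNA took 26.1% ± 2.70 (SD, n = 3) of the counts of the Q33 double knock-ins, against group means of 17.7% to 20.4%. Y-linked genes exceeded 10 CPM in 0 of 3 NTg, 3 of 3 Q22, 2 of 3 Q33, 2 of 3 TDP-43, 1 of 3 Q22 double and 1 of 3 Q33 double knock-in libraries. In whole tissue, fewer cells of a type and less RNA per cell cannot be told apart.

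Levels of different genes were compared per length, as RPKM (CPM per kilobase of exon). The most abundant member by this measure was Col4a2, a core chain of basement membranes, at 4.23 RPKM averaged over the libraries. It was followed by the cartilage-type fibrillar chains Col11a1 (3.81 RPKM) and Col11a2 (3.47 RPKM), then by Col16a1 (3.12 RPKM), the transmembrane Col23a1 (3.01 RPKM) and Col4a1 (2.69 RPKM), the partner chain of Col4a2. The chains of type I and type III collagen, which dominate skin and tendon, were low here: Col1a2 averaged 1.07 RPKM, Col1a1 0.402 and Col3a1 0.138. The lowest member was Col4a3 at 0.0751 RPKM. Fibrillar chains took 31.4% of the summed RPKM of the 39 members, FACIT chains 23.6%, basement membrane chains 20.9%, transmembrane collagens 11.9%, type VI chains 5.94% and multiplexins 3.69%.

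**Figure D1:**
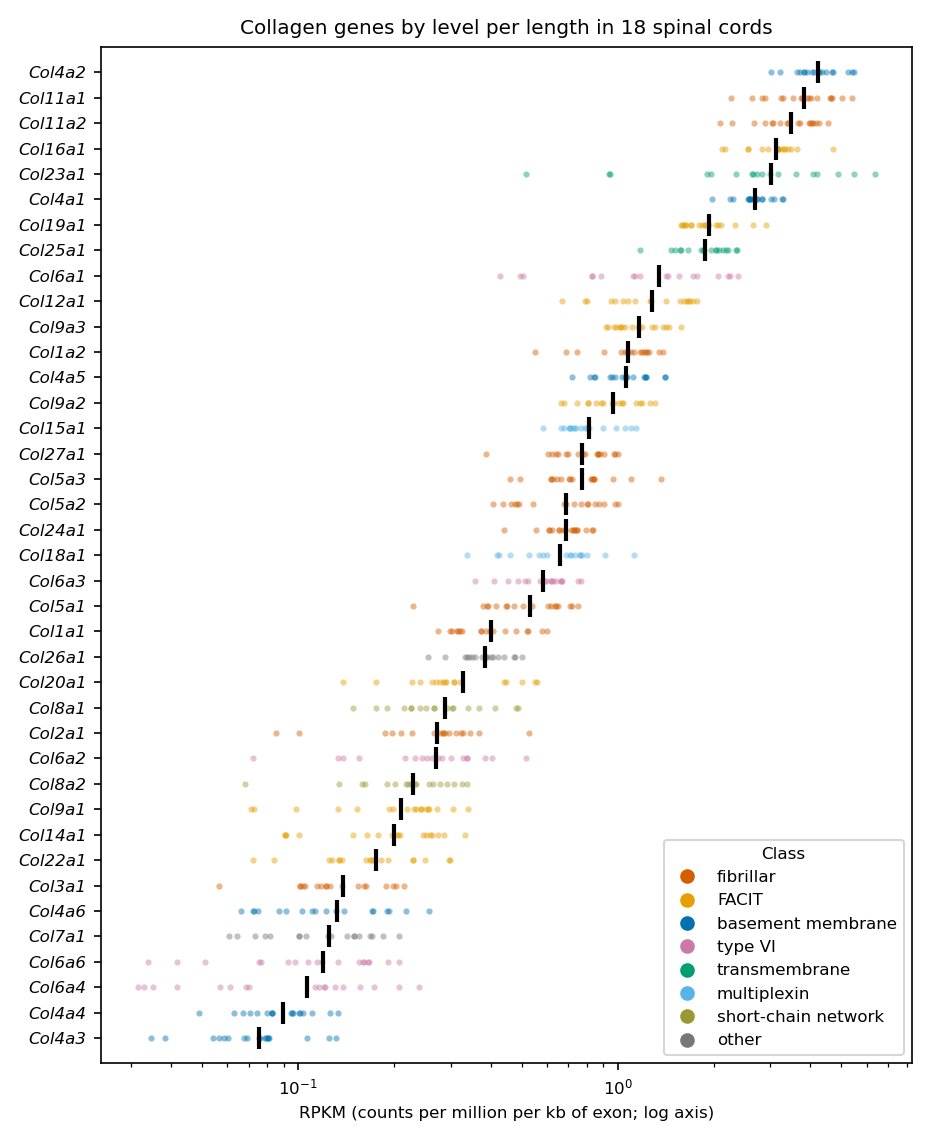
Level of each of the 39 collagen genes per length (RPKM, log axis), with 1 point per library (18 per gene), colored by class, and a black tick at the mean. Col4a2, Col11a1 and Col11a2 have the highest means, and the points of Col23a1 and Col6a1 reach far to the left of their ticks.

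Differences between genotypes were tested with edgeR's quasi-likelihood test on the counts, with p-values adjusted over all 20635 genes and a threshold of 0.05. Against NTg, 11 of the 39 members (28.2%) fell and 2 (5.13%) rose in the Q33 double knock-ins, where 6.39% of all tested genes fell and 5.68% rose. The median log2 fold change was -0.20 over the members and -0.01 over all tested genes. Against the Q22 double knock-ins 13 members fell and 0 rose, against backgrounds of 6.17% and 6.67%. Against TDP-43 mice 14 fell and 0 rose, against 6.66% and 5.98%. Against Q33 mice 1 fell and 0 rose, against 0.678% and 0.213%. These 4 comparisons share the 3 Q33 double knock-in libraries, so they are not independent of each other. With library totals in place of TMM scaling, 16 members fell and 1 rose against NTg. The median of all genes was then -0.25, and 3940 of all genes fell and 206 rose rather than 1318 and 1173. Members with an unadjusted p under 0.05 numbered 20 against NTg, 18 against the Q22 double knock-ins, 16 against TDP-43 and 12 against Q33. The share of all tested genes under that value was 28.4%, 28.2%, 28.6% and 17.7% in these 4 comparisons.

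No member was called in the other 7 comparisons of 2 genotypes. The percentage of all tested genes called was 0.00969 for the Q22 double knock-ins against NTg. It was 0 for Q22, Q33 and TDP-43 against NTg, Q33 against Q22, and the Q22 double knock-ins against TDP-43 and against Q22. Members with an unadjusted p under 0.05 numbered 4 for Q22, 6 for Q33, 2 for TDP-43 and 1 for the Q22 double knock-ins against NTg, where 4.23%, 7.28%, 4.23% and 2.3% of all tested genes did so. They numbered 2 for Q33 against Q22, 0 for the Q22 double knock-ins against TDP-43 and 2 for those against Q22, beside 2.14%, 2.41% and 4.12% of all tested genes. DESeq2 also called 0 members in each of these 7. The interactions of Q33 and of Q22 with TDP-43 ask whether the double knock-ins depart from the sum of the single ones. By edgeR they called 0 members and 0% of all genes. Members under an unadjusted 0.05 numbered 10 and 2 (13% and 4.01% of all tested genes). DESeq2 also called 0 members, beside 2.06% and 0.0051% of all genes to which it gave an adjusted p. For the first interaction it gave none to 35 of the members, so it could not call those. In these fits the members' step from Q33 alone to Q33 with TDP-43 was not shown to differ from their step from NTg to TDP-43. The test for any difference among the 6 genotypes called 7 members (17.9%, background 4.16%): Col1a2, Col11a2, Col12a1, Col18a1, Col23a1, Col6a1 and Col6a2.

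**Figure D2:**
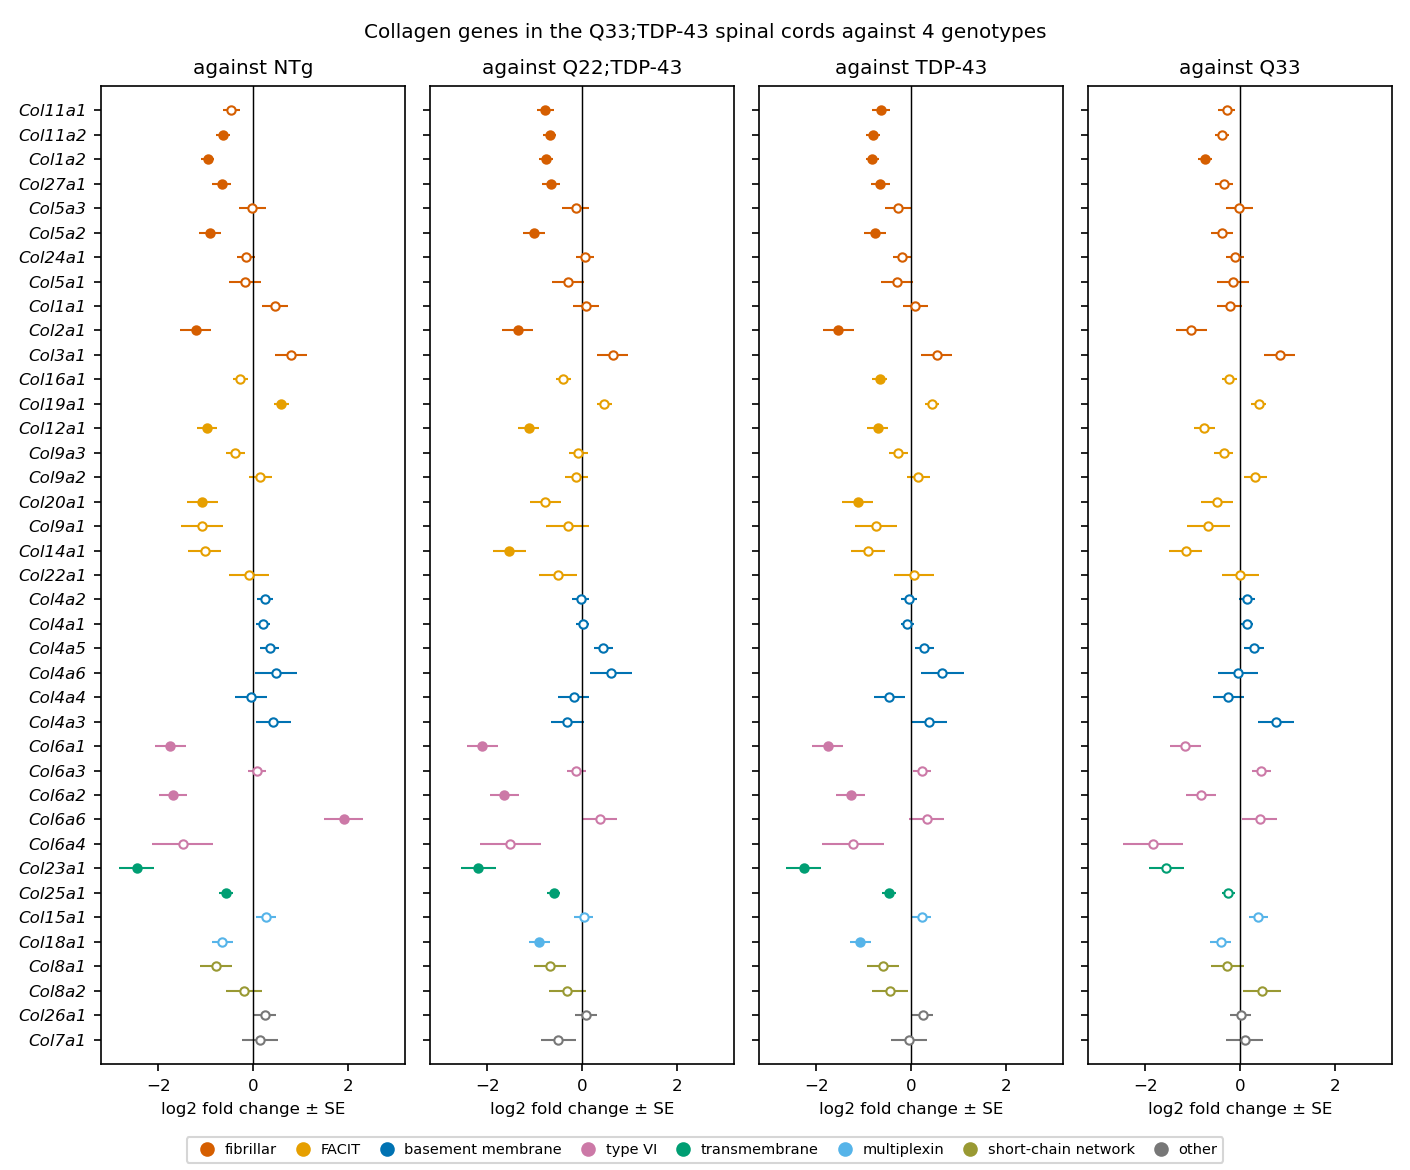
Log2 fold change ± SE of the 39 collagen genes in the Q33 double knock-ins (3 libraries) against 4 other genotypes (3 libraries each), ordered by class and, within a class, by level per length. Filled points passed an adjusted p of 0.05. Col23a1, Col6a1 and Col6a2 lie farthest to the left among the filled points against NTg and the Q22 double knock-ins. Against TDP-43 these are Col23a1, Col6a1 and Col2a1, and against Q33 only Col1a2 is filled. All 6 basement membrane points are open in each panel.

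Both transmembrane collagens fell, and the fall of Col23a1 was the largest of any member called against NTg. Col23a1, a membrane-bound collagen that can be shed from the cell surface, had 31.4, 15.6 and 28 CPM in NTg, 20.7, 15.1 and 17.1 in Q22, 13.4, 16.2 and 10.9 in Q33 and 18.1, 11.2 and 36.6 in TDP-43 libraries. Col23a1 stood at 15.2, 23.3 and 24.1 CPM in the Q22 double and at 2.96, 5.42 and 5.4 CPM in the Q33 double knock-ins. Every Q33 double knock-in library lay below every other library, and TDP-43 2 and Q33 3 were the lowest of the others. Its log2 fold change was -2.45 ± 0.37 (SE, adjusted p = 0.00068, edgeR) against NTg, -2.19 ± 0.37 (0.0014) against the Q22 double knock-ins and -2.26 ± 0.37 (0.0015) against TDP-43. Against Q33 it was -1.56 ± 0.37, with an edgeR adjusted p that rounds to 0.050 and was not called. DESeq2 called that difference (adjusted p = 0.009).

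Col25a1, a transmembrane collagen of neurons, had 30.5, 23.6 and 26.9 CPM in NTg, 24.1, 27.7 and 26.3 in Q22, 21.4, 24 and 19.5 in Q33 and 25.3, 20.2 and 30.3 in TDP-43 libraries. Col25a1 stood at 28.5, 26.3 and 28.2 CPM in the Q22 double and at 20.4, 15.2 and 19 CPM in the Q33 double knock-ins. The groups did not overlap against NTg. Q33 double knock-in 1 lay above TDP-43 2, at 20.2 CPM, and above Q33 3, at 19.5 CPM. Col25a1 fell by 0.57 ± 0.14 on the log2 scale against NTg (adjusted p = 0.016, edgeR), by 0.60 ± 0.14 against the Q22 double knock-ins (0.011) and by 0.47 ± 0.14 against TDP-43 (0.037). It was not called against Q33.

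Type VI collagen is assembled from the chains of Col6a1, Col6a2 and a further chain, which Col6a3 or the related Col6a4, Col6a5 or Col6a6 supplies. Col6a1, a core chain of type VI filaments, had 6.29, 4.9 and 9.7 CPM in NTg, 3.64, 6.17 and 6.79 in Q22, 5.13, 4.94 and 3.86 in Q33 and 7.72, 3.63 and 9.86 in TDP-43 libraries. Col6a1 stood at 10.4, 9.0 and 7.51 CPM in the Q22 double and at 1.88, 2.21 and 2.17 CPM in the Q33 double knock-ins. Again each Q33 double knock-in library was below each of the other 15. The fall was 1.74 ± 0.33 on the log2 scale against NTg (adjusted p = 0.0037, edgeR), and the log2 fold change was -2.11 ± 0.33 against the Q22 double knock-ins (0.00077), -1.75 ± 0.33 against TDP-43 (0.0038) and -1.15 ± 0.33 against Q33, which was not called (0.083).

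Col6a2, the other core chain, had 4.29, 2.5 and 2.8 CPM in NTg, 1.94, 2.02 and 2.18 in Q22, 2.35, 1.8 and 1.15 in Q33 and 2.11, 2.29 and 2.8 in TDP-43 libraries. Col6a2 stood at 3.19, 2.73 and 3.36 CPM in the Q22 double and at 0.60, 1.29 and 1.11 CPM in the Q33 double knock-ins. All 3 Q33 double knock-ins lay below the other genotypes except Q33, where they overlapped Q33 3. Col6a2 fell by 1.69 ± 0.30 on the log2 scale against NTg (adjusted p = 0.0024, edgeR), by 1.64 ± 0.30 against the Q22 double knock-ins (0.0027) and by 1.27 ± 0.30 against TDP-43 (0.013).

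Col6a3, the longest of the usual 3 chains, had 6.82, 7.4 and 7.47 CPM in NTg, 5.81, 6.27 and 7.92 in Q22, 7.1, 4.27 and 5.43 in Q33 and 4.92, 7.36 and 7.1 in TDP-43 libraries. Col6a3 stood at 7.98, 8.96 and 7.92 CPM in the Q22 double and at 6.11, 7.63 and 9.2 CPM in the Q33 double knock-ins. The groups overlap, and Col6a3 was not called, with a log2 fold change of 0.08 ± 0.20 against NTg (adjusted p = 0.84, edgeR). Per length, the ratio of Col6a3 to Col6a1 was 1.34 ± 0.191 (SD, n = 3) in the Q33 double knock-ins, with a range of 1.19 to 1.55. In the other genotypes the mean ratio was 0.344 (Q22 double) to 0.461 (Q22), and no single library exceeded 0.742 (TDP-43). The ratio of Col6a1 to Col6a2 had means of 4.31 in the Q33 double knock-ins and 4.36 to 5.57 elsewhere. These ratios are given as a description, without a test, since the chains were paired with their fold changes known. Col6a4 had 0.300, 0.281 and 0.486 CPM in the Q33 double knock-ins against 2.03, 0.521 and 0.356 in NTg, and was not called in any comparison.

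Col6a6 moved the other way, and its contrast lay in the controls. Col6a6, an alternative to Col6a3, had 0.383, 0.469 and 0.311 CPM in NTg, 1.42, 1.09 and 1.47 in Q22, 0.899, 0.854 and 1.53 in Q33 and 0.702, 1.51 and 1.22 in TDP-43 libraries. Col6a6 stood at 0.982, 0.693 and 1.75 CPM in the Q22 double and at 1.05, 1.89 and 1.46 CPM in the Q33 double knock-ins. The NTg libraries were the lowest 3 of all 18, and the other genotypes overlapped each other. The rise against NTg was 1.91 ± 0.41 on the log2 scale for the Q33 double knock-ins (adjusted p = 0.0077, edgeR). Against the same NTg libraries, the log2 fold change was 1.77 for Q22, 1.5 for Q33, 1.59 for TDP-43 and 1.54 for the Q22 double knock-ins. None of these passed, with adjusted p-values of 0.91, 0.66, 1 and 1. Col6a6 had few reads, with 7 to 47 counts per library.

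**Figure D3:**
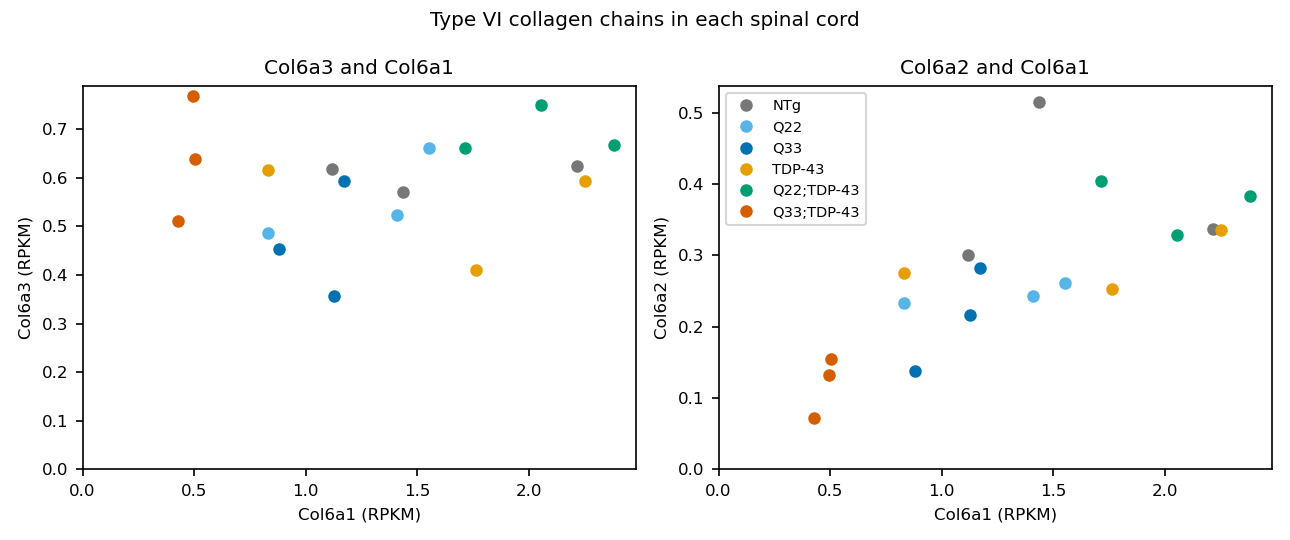
Levels per length (RPKM) of Col6a3 against Col6a1 (left) and Col6a2 against Col6a1 (right), 1 point per library colored by genotype, 3 libraries per genotype. The 3 Q33 double knock-in points lie at the left, at the height of the other genotypes for Col6a3 and below nearly all of them for Col6a2.

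Windows just upstream of the starts of Col23a1, Col6a1, Col6a2 and Col6a3 are shown because Col6a1 and Col6a2 fell together and Col6a3 did not. Of the 39 members, 30 had a promoter in the RefSeq table used (GRCm38.p6). Each window is given 5′ to 3′ on the gene's strand without any annotated exon: chr11:51289670-51289919 (plus strand) for Col23a1, chr10:76726169-76726294 (minus) for Col6a1, chr10:76623631-76623880 (minus) for Col6a2 and chr1:90843972-90844221 (minus) for Col6a3. Capitals mark matches on either strand to the GC box GGGCGG (written CCGCCC on the other strand), the CCAAT box CCAAT or the TATA box TATAAA.
Col23a1: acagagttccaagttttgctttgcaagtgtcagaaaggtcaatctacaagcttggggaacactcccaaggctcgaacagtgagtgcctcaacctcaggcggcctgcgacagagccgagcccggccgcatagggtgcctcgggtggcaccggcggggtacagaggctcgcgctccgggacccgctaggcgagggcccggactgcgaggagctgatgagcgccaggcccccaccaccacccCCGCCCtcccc
Col6a1: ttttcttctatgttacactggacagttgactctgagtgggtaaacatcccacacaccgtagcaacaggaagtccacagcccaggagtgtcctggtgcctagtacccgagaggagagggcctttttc
Col6a2: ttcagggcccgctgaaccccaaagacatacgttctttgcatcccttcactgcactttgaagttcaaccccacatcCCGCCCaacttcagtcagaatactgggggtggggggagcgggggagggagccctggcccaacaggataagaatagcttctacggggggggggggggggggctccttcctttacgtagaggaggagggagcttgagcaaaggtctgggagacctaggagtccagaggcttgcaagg
Col6a3: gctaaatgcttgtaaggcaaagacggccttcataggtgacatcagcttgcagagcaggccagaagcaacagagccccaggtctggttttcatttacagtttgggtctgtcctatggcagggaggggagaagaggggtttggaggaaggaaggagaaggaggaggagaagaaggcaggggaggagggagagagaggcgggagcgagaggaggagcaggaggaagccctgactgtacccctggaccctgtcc
Col23a1 and Col6a2 each held 1 GC box, which 32.7% of 32817 promoter windows of 250 bases hold. No CCAAT or TATA box was found in these 4 windows. Over all windows of 250 bases the shares are 33.8% and 12.4%. The Col6a1 window spans only 126 bases, a length at which 13.5% hold a GC box, 16.9% a CCAAT box and 6.26% a TATA box. GC content was 66.0% for Col23a1, 51.6% for Col6a1, 59.2% for Col6a2 and 57.2% for Col6a3, against a median of 52.4% over all windows.

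Among the fibrillar chains, 5 of 11 fell in the Q33 double knock-ins against NTg and 0 rose, with a median log2 fold change of -0.46. Against the Q22 double knock-ins and against TDP-43, 6 of 11 fell. Col1a2, which with Col1a1 forms type I collagen, had 16.7, 14 and 17.2 CPM in NTg, 13.7, 15.3 and 12.7 in Q22, 14.8, 13.1 and 13.3 in Q33 and 13.3, 15.3 and 14.6 in TDP-43 libraries. Col1a2 stood at 11.2, 15.6 and 15 CPM in the Q22 double and at 6.83, 9.28 and 8.53 CPM in the Q33 double knock-ins. Libraries of the Q33 double knock-ins lay below all other libraries. It was the only member called against each of the 4 genotypes, with log2 fold changes of -0.96 ± 0.14 against NTg (adjusted p = 0.0007, edgeR), -0.76 ± 0.14 against the Q22 double knock-ins (0.0032), -0.82 ± 0.14 against TDP-43 (0.0029) and -0.74 ± 0.14 against Q33 (0.022).

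Its partner Col1a1 was not called in any comparison, and had a log2 fold change of 0.46 ± 0.27 against NTg (adjusted p = 0.29). The ratio of Col1a2 to Col1a1 per length was 4.33 ± 0.769 (SD, n = 3) in NTg and 1.64 ± 0.175 in the Q33 double knock-ins, and its mean was 2.37 (Q33) to 3.19 (TDP-43) in the other genotypes. The range of the Q33 double knock-ins, 1.44 to 1.75, overlapped that of Q22, whose lowest library was at 1.70. This ratio is likewise given without a test. Col3a1, the type III chain, was also not called, at 0.80 ± 0.33 against NTg (adjusted p = 0.12). Its 3 Q33 double knock-in libraries (1.85 to 2.10 CPM) lay above the NTg libraries.

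Col2a1, the chain of cartilage fibers, had 2.88, 2.45 and 2.62 CPM in NTg, 2.74, 2.67 and 2.56 in Q22, 3.0, 1.93 and 2.1 in Q33 and 3.39, 1.82 and 4.87 in TDP-43 libraries. Col2a1 stood at 3.03, 3.19 and 2.63 CPM in the Q22 double and at 0.788, 1.73 and 0.929 CPM in the Q33 double knock-ins. The Q33 double knock-ins were the lowest 3 of 18. Col2a1 changed by a log2 fold of -1.21 ± 0.33 against NTg (adjusted p = 0.024, edgeR), -1.36 ± 0.32 against the Q22 double knock-ins (0.012) and -1.54 ± 0.32 against TDP-43 (0.0067).

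Col11a1 and Col11a2 encode type XI chains, which sit in the core of type II fibers. Col11a2, the lower of this pair per length, had 27.9, 21.9 and 27 CPM in NTg, 23.3, 25 and 20.7 in Q22, 25.4, 20.9 and 18.2 in Q33 and 28.5, 27.3 and 31.1 in TDP-43 libraries. Col11a2 stood at 23.1, 27.5 and 29.1 CPM in the Q22 double and at 14.2, 19.8 and 15.6 CPM in the Q33 double knock-ins. All 3 Q33 double knock-ins were separate from all groups but Q33, through Q33 3. The difference on the log2 scale was -0.63 ± 0.15 against NTg (adjusted p = 0.01, edgeR), -0.69 ± 0.15 against the Q22 double knock-ins (0.006) and -0.81 ± 0.15 against TDP-43 (0.003).

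Col11a1, the more abundant type XI chain, had 50.6, 45 and 49.9 CPM in NTg, 36.8, 59.1 and 51.1 in Q22, 47.8, 48.1 and 33.5 in Q33 and 64, 41.9 and 58.8 in TDP-43 libraries. Col11a1 stood at 59.4, 53.4 and 68.6 CPM in the Q22 double and at 41.1, 36.1 and 28.8 CPM in the Q33 double knock-ins. Libraries of the Q33 double knock-ins overlapped the single Q22 and Q33 mice and no other group. The log2 fold change was -0.77 ± 0.18 against the Q22 double knock-ins (adjusted p = 0.012, edgeR), -0.63 ± 0.18 against TDP-43 (0.032) and -0.46 ± 0.18 against NTg, not called (0.11).

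Col5a2, a type V chain that sits within type I fibers, had 7.36, 6.98 and 9.39 CPM in NTg, 4.44, 6.52 and 7.67 in Q22, 5.22, 6.61 and 4.71 in Q33 and 8.66, 4.64 and 8.4 in TDP-43 libraries. Col5a2 stood at 8.14, 7.73 and 9.58 CPM in the Q22 double and at 3.9, 4.18 and 4.55 CPM in the Q33 double knock-ins. Only Q22 1 fell within the range of the Q33 double knock-ins, and all other libraries were above it. On the log2 scale the difference was -0.91 ± 0.23 against NTg (adjusted p = 0.017, edgeR), -1.01 ± 0.23 against the Q22 double knock-ins (0.0092) and -0.77 ± 0.23 against TDP-43 (0.036). Col5a1 and Col5a3, the other type V chains, were not called in any comparison, with -0.17 ± 0.34 and -0.02 ± 0.29 against NTg.

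Col27a1, a fibrillar chain of cartilage, had 12.7, 11.3 and 10.1 CPM in NTg, 8.36, 11.5 and 11.3 in Q22, 10.3, 7.86 and 9.11 in Q33 and 11.8, 8.94 and 13 in TDP-43 libraries. Col27a1 stood at 9.78, 11.2 and 12.8 CPM in the Q22 double and at 5.03, 8.08 and 8.45 CPM in the Q33 double knock-ins. The Q33 double knock-ins lay below all NTg, TDP-43 and Q22 double knock-in libraries and overlapped Q22 1 and Q33 2. It fell by 0.66 ± 0.20 on the log2 scale against NTg (adjusted p = 0.034, edgeR), by 0.65 ± 0.20 against the Q22 double knock-ins (0.035) and by 0.65 ± 0.20 against TDP-43 (0.037). The remaining fibrillar chain, Col24a1, was at -0.14 ± 0.19 against NTg and was not called.

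**Figure D4:**
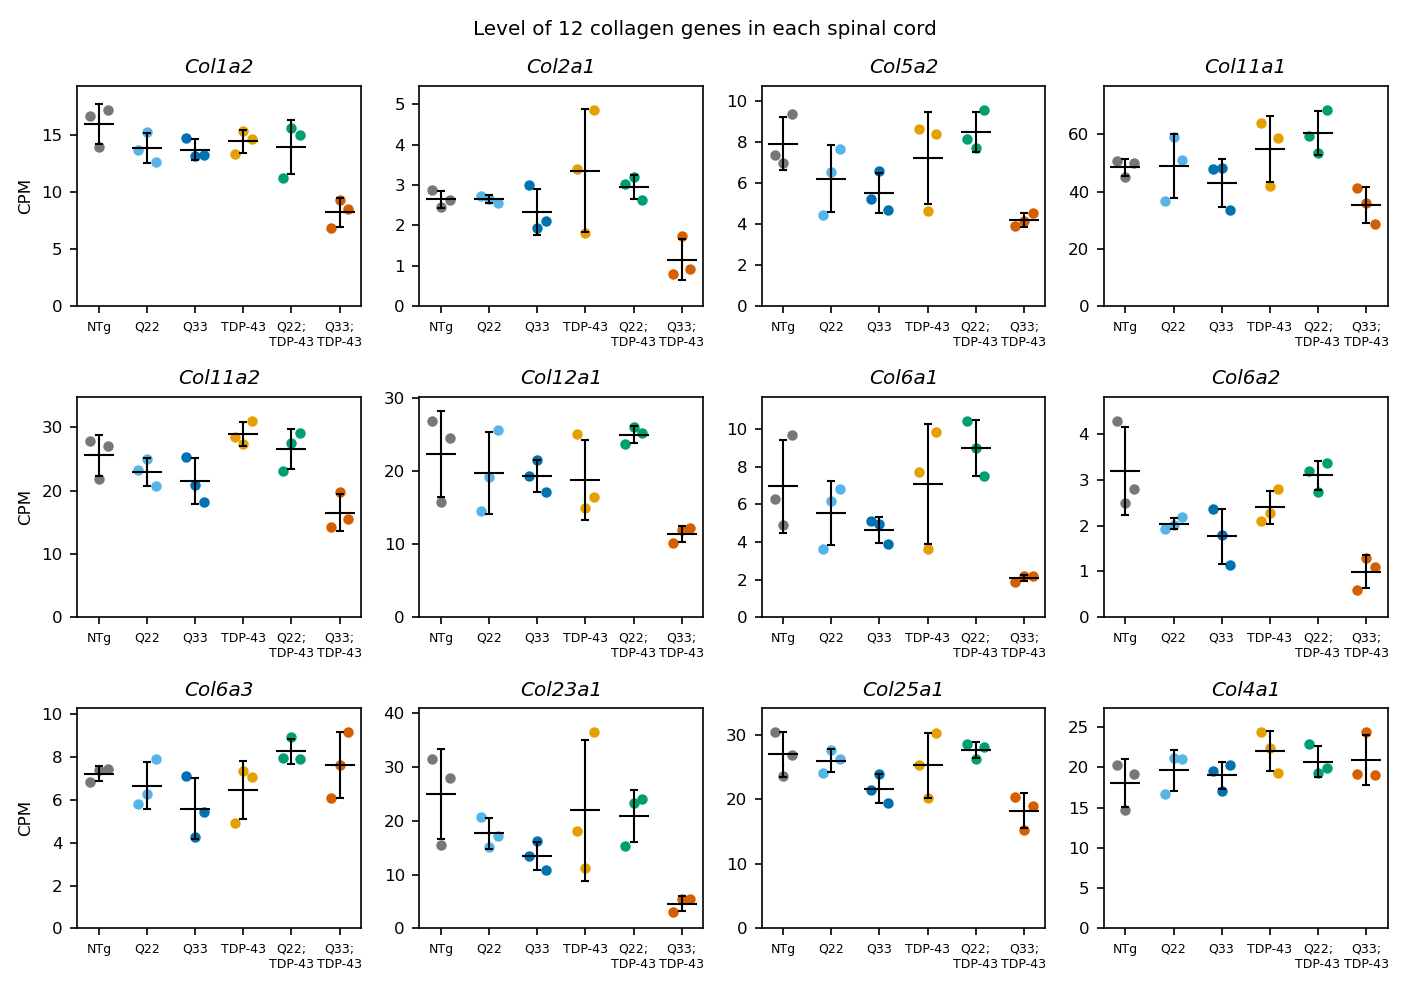
CPM of 12 collagen genes in each of 18 spinal cords, 3 per genotype (points), with the group mean and SD in black. The Q33 double knock-in points are the lowest group for Col1a2, Col2a1, Col12a1, Col6a1 and Col23a1 and lie among the other genotypes for Col6a3 and Col4a1.

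Of the 9 FACIT chains, 2 fell (Col12a1 and Col20a1) and 1 rose (Col19a1) against NTg. Col12a1, which decorates type I fibers, had 26.9, 15.7 and 24.5 CPM in NTg, 14.5, 19.2 and 25.7 in Q22, 19.3, 21.6 and 17.2 in Q33 and 25.1, 14.9 and 16.4 in TDP-43 libraries. Col12a1 stood at 23.8, 26.1 and 25.2 CPM in the Q22 double and at 10.2, 12 and 12.2 CPM in the Q33 double knock-ins. All 3 Q33 double knock-ins lay below every other library. Its log2 fold change was -0.97 ± 0.22 against NTg (adjusted p = 0.0093, edgeR), -1.13 ± 0.22 against the Q22 double knock-ins (0.0036) and -0.71 ± 0.22 against TDP-43 (0.04).

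Col19a1, a collagen known from interneurons and smooth muscle, had 11, 12.9 and 10.9 CPM in NTg, 11.2, 12.6 and 12.9 in Q22, 14.2, 13.3 and 12.4 in Q33 and 11.1, 16 and 11.2 in TDP-43 libraries. Col19a1 stood at 14.5, 11.6 and 11.7 CPM in the Q22 double and at 20.0, 13.9 and 18.2 CPM in the Q33 double knock-ins. Libraries of the Q33 double knock-ins lay above NTg without overlap, while Q33 double knock-in 2 was within the range of the remaining libraries. It rose by 0.59 ± 0.16 on the log2 scale against NTg (adjusted p = 0.023, edgeR) and was not called against the other genotypes. With library totals it was not called against NTg either (0.10). DESeq2 called it higher against the Q22 double knock-ins and TDP-43 too (adjusted p = 0.033 and 0.041).

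Col20a1, a less studied FACIT chain, had 1.5, 2.87 and 2.27 CPM in NTg, 0.897, 1.58 and 1.38 in Q22, 1.58, 1.35 and 1.45 in Q33 and 2.57, 1.48 and 2.84 in TDP-43 libraries. Col20a1 stood at 1.43, 1.65 and 2.3 CPM in the Q22 double and at 1.24, 1.17 and 0.708 CPM in the Q33 double knock-ins. The Q33 double knock-ins were lower than NTg, Q33, TDP-43 and Q22 double knock-in libraries without overlap, and overlapped Q22 1. It fell by 1.07 ± 0.33 on the log2 scale against NTg (adjusted p = 0.04, edgeR) and by 1.13 ± 0.32 against TDP-43 (0.03).

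Col14a1, another collagen on the surface of type I fibers, had 1.73, 1.04 and 1.25 CPM in NTg, 1.46, 1.93 and 1.76 in Q22, 1.84, 1.44 and 1.15 in Q33 and 1.81, 0.639 and 1.38 in TDP-43 libraries. Col14a1 stood at 2.33, 2.0 and 1.43 CPM in the Q22 double and at 0.638, 0.643 and 0.708 CPM in the Q33 double knock-ins. All 3 Q33 double knock-ins lay below all libraries except TDP-43 2. The fall against the Q22 double knock-ins was 1.53 ± 0.34 on the log2 scale (adjusted p = 0.0085, edgeR), and the difference from NTg, -1.02 ± 0.35, was not called (0.065).

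Col16a1, the FACIT chain with the highest level per length, had 21.4, 17.2 and 21.4 CPM in NTg, 22, 23.5 and 19.8 in Q22, 22.3, 17.2 and 19.1 in Q33 and 24.5, 22.6 and 31.8 in TDP-43 libraries. Col16a1 stood at 21.4, 21.4 and 23 CPM in the Q22 double and at 14.6, 21.2 and 14.2 CPM in the Q33 double knock-ins. The TDP-43 libraries were high, and Q33 double knock-in 2 fell among those of the other genotypes. It was called only against TDP-43, where it fell by 0.66 ± 0.16 on the log2 scale (adjusted p = 0.013, edgeR). Against NTg it was at -0.27 ± 0.16. The type IX chains Col9a1, Col9a2 and Col9a3, and Col22a1, were not called in any comparison, with log2 fold changes against NTg of -1.07, 0.15, -0.38 and -0.09.

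The basement membrane chains gave no call: 0 of 6 in each of the 11 comparisons of 2 genotypes, both interactions and the test over 6 genotypes. DESeq2 and every other setting tried also called 0. Against NTg no chain had an unadjusted p under 0.05 in the Q33 double knock-ins, and the median log2 fold change was 0.30. Col4a2, the most abundant member, had 29.7, 20.0 and 25.2 CPM in NTg, 21.3, 28.3 and 26.7 in Q22, 30.8, 24 and 25.8 in Q33 and 27.2, 28.9 and 35.6 in TDP-43 libraries. Col4a2 stood at 34.7, 25.3 and 31.1 CPM in the Q22 double and at 28.1, 36.4 and 24.5 CPM in the Q33 double knock-ins. Libraries of the Q33 double knock-ins overlapped every other group, and the difference from NTg was 0.25 ± 0.17 (adjusted p = 0.37, edgeR).

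Col4a1 had 20.3, 14.7 and 19.2 CPM in NTg and 19.1, 24.4 and 19 in the Q33 double knock-ins, a log2 fold change of 0.20 ± 0.14. The ratio of Col4a2 to Col4a1 per length had group means of 1.46 to 1.65, and 1.6 in the Q33 double knock-ins. Col4a5 was at 0.35 ± 0.20 against NTg, Col4a6 at 0.49 ± 0.44, Col4a3 at 0.42 ± 0.37 and Col4a4 at -0.05 ± 0.34.

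The multiplexins are anchored at basement membranes. Col18a1, the source of endostatin, had 3.99, 3.7 and 5.6 CPM in NTg, 4.82, 6.42 and 5.41 in Q22, 4.11, 4.22 and 2.98 in Q33 and 4.97, 5.01 and 7.87 in TDP-43 libraries. Col18a1 stood at 5.36, 5.35 and 5.16 CPM in the Q22 double and at 2.36, 2.93 and 3.23 CPM in the Q33 double knock-ins. The Q33 double knock-ins were below all groups except Q33, which overlapped through Q33 3. It fell by 0.90 ± 0.22 on the log2 scale against the Q22 double knock-ins (adjusted p = 0.013, edgeR). It was -1.07 ± 0.22 against TDP-43 (0.0057) and -0.64 ± 0.22 against NTg, not called (0.063).

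The members not called in any comparison numbered 22 of 39. Col15a1, one of these and the other multiplexin, had 4.29, 5.0 and 4.63 CPM in NTg, 6.99, 6.27 and 4.86 in Q22, 4.71, 4.49 and 3.71 in Q33 and 4.21, 5.68 and 4.46 in TDP-43 libraries. Col15a1 stood at 6.67, 5.16 and 4.61 CPM in the Q22 double and at 4.5, 7.23 and 5.09 CPM in the Q33 double knock-ins. The range of the Q33 double knock-ins overlapped that of every other group, and the difference from NTg was 0.27 ± 0.20 on the log2 scale.

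The short-chain network collagens Col8a1 and Col8a2, known from vessel walls, were at -0.78 ± 0.34 and -0.20 ± 0.38 against NTg. Col8a1, the higher of them per length, had 3.76, 2.09 and 2.67 CPM in NTg, 1.37, 2.37 and 1.68 in Q22, 1.97, 2.29 and 1.76 in Q33 and 3.8, 1.48 and 2.39 in TDP-43 libraries. Col8a1 stood at 1.88, 2.89 and 3.22 CPM in the Q22 double and at 1.16, 1.77 and 2.08 CPM in the Q33 double knock-ins. Libraries of the Q33 double knock-ins were just below NTg and overlapped the other genotypes. Col26a1, a collagen outside these classes, had 2.8, 3.08 and 2.71 CPM in NTg, 2.08, 3.9 and 3.44 in Q22, 4.11, 3.28 and 2.75 in Q33 and 2.93, 3.33 and 2.35 in TDP-43 libraries. Col26a1 stood at 3.6, 3.15 and 2.86 CPM in the Q22 double and at 3.19, 3.86 and 3.14 CPM in the Q33 double knock-ins. The Q33 double knock-ins lay just above NTg and among the rest, with a difference from NTg of 0.25 ± 0.23. Col7a1, the anchoring fibril collagen, ran from 0.623 to 2.12 CPM and was at 0.15 ± 0.39.

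Several members are neighbors in the genome (mm10). Col6a2 (chr10:76595762-76623630) and Col6a1 (chr10:76708792-76726168) lie 85.2 kb apart on the minus strand, and both fell against NTg. Col5a2, which fell, lies 24.6 kb from Col3a1, which was not called, and Col19a1, which rose, lies 9.21 kb from Col9a1, which was not called. Col6a6 lies next to Col6a5, 27.9 kb away. The head-to-head pairs Col4a1 and Col4a2 (overlapping by 22 bases), Col4a3 and Col4a4 (0.072 kb apart) and Col4a5 and Col4a6 (1.31 kb apart) had no call in either gene.

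The caudal Hox score moved with the comparison, since it was high in all 3 Q33 double knock-ins and low in all NTg and TDP-43 libraries. Whether the score follows the stretch of cord sampled or the genotype was not tested. With the caudal Hox score as a term in the fit, 5 members rather than 13 passed against NTg: Col23a1 (-2.39, adjusted p = 0.0076), Col6a1 (-1.88, 0.015), Col6a2 (-1.67, 0.02), Col12a1 (-1.06, 0.037) and Col1a2 (-0.81, 0.012). Of all tested genes 2.57% passed in that fit rather than 12.1%, and the median log2 fold change of the members was -0.25. Both rises missed the threshold in that fit, with Col19a1 at 0.61 (0.087) and Col6a6 at 1.84 (0.054). Against TDP-43 2 members passed rather than 14 (Col23a1 and Col6a1, both with an adjusted p of 0.023), as did 1.55% of all genes rather than 12.6%, and the members' median log2 fold change was -0.47 rather than -0.45. Against the Q22 double knock-ins, of which 1 library has a high score, 12 of 13 did (8.1% of all genes rather than 12.8%). In the test over 6 genotypes 0 passed rather than 7 (0.485% of all genes rather than 4.16%).

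Values in the 3 libraries of other genotypes with a high caudal Hox score (Q33 2, Q33 3 and Q22 double knock-in 1) are given beside these as a description. Col23a1 had 10.9 to 16.2 CPM in them and 2.96 to 5.42 in the Q33 double knock-ins. Col6a1 had 3.86 to 10.4 CPM there against 1.88 to 2.21, Col12a1 17.2 to 23.8 against 10.2 to 12.2, and Col1a2 11.2 to 13.3 against 6.83 to 9.28. Of all 39 members, 10 were lower in the Q33 double knock-ins than in these 3 libraries without overlap, as were 10.2% of all tested genes. Those 10 include 7 of the 11 that fell against NTg. The 5 members lower than in all 15 other libraries were these 4 and Col2a1, where the share of all tested genes was 3.83%. Both members that rose overlapped the 3 libraries with a high score. Col19a1 had 12.4 to 14.5 CPM there, exceeded by Q33 double knock-in 1 (20.0) and 3 (18.2) but not 2 (13.9). Col6a6 had 0.854 to 1.53 CPM there, exceeded by Q33 double knock-in 2 (1.89). Col11a2 (18.2 to 23.1 CPM there, against 14.2 to 19.8) and Col25a1 (19.5 to 28.5, against 15.2 to 20.4) overlapped.

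**Figure D5:**
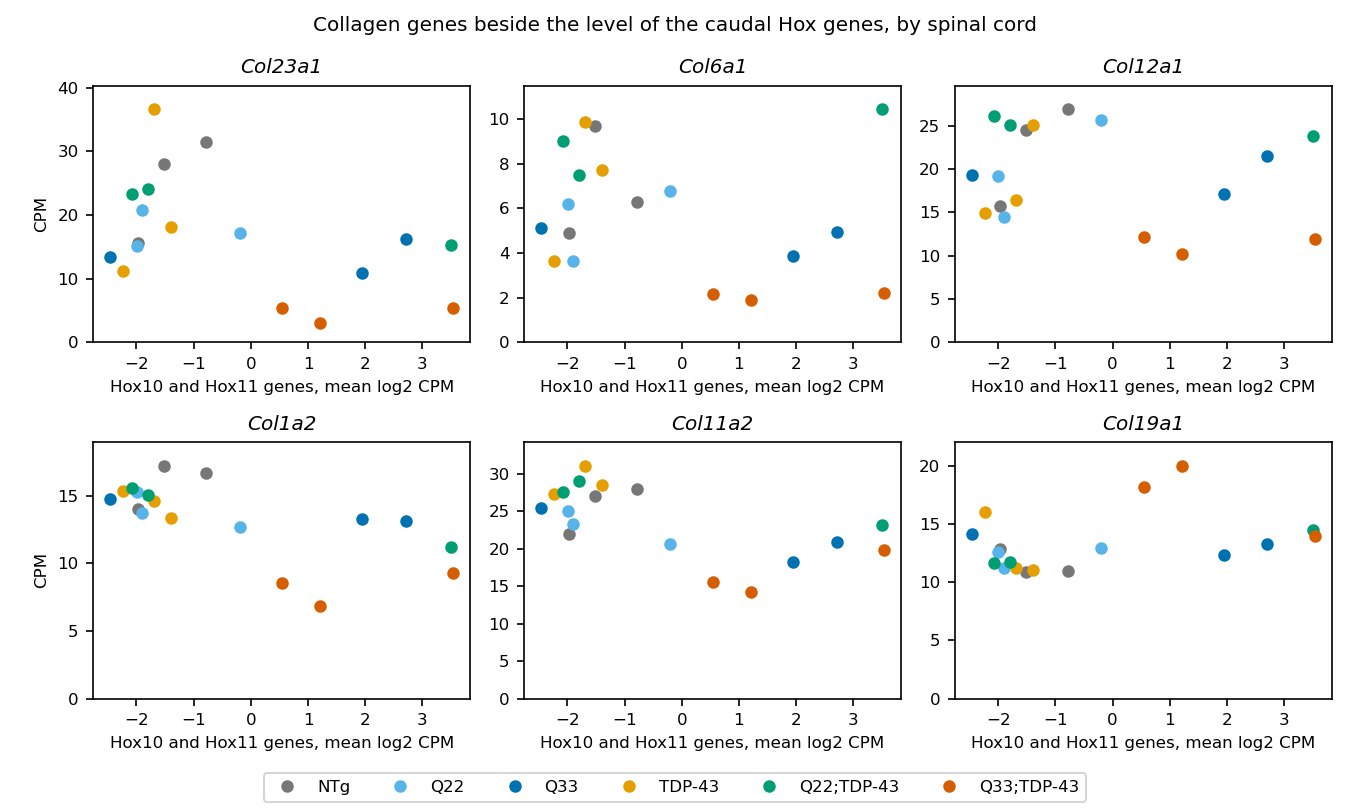
CPM of 6 collagen genes against the caudal Hox score (log2 CPM averaged over 6 genes), 1 point per library colored by genotype, 3 libraries per genotype. At high Hox levels the Q33 double knock-in points lie below the Q33 and Q22 double knock-in points for Col23a1, Col6a1, Col12a1 and Col1a2, and reach into them for Col11a2 and Col19a1.

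Single libraries also decided part of the calls. Against NTg, Col1a2, Col23a1, Col6a1, Col6a2 and Col6a6 passed whichever of the 6 libraries was left out. Col11a2 did not pass without Q33 double knock-in 1 (adjusted p = 0.073), nor Col12a1 without that library or NTg 1 (up to 0.062). Col5a2 was lost without NTg 3 or Q33 double knock-in 1 (up to 0.088), Col25a1 without NTg 1, NTg 3 or Q33 double knock-in 2 (up to 0.088), and Col19a1 without NTg 1, NTg 3 or Q33 double knock-in 1 (up to 0.13). Col2a1, Col27a1 and Col20a1 were lost in 4, 4 and 5 of the 6 fits (up to 0.13, 0.18 and 0.14). The count of members called fell from 13 to 8 without NTg 1, 7 without NTg 3 and 6 without Q33 double knock-in 1, while the share of all genes called went from 12.1% to 6.22%, 4.67% and 2.84%.

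Against the Q22 double knock-ins, Col11a2, Col12a1, Col1a2, Col23a1, Col6a1 and Col6a2 passed in all 6 such fits. Without Q33 double knock-in 1 the count fell from 13 to 8, and the share of all genes from 12.8% to 3.39%. The calls of Col14a1 (adjusted p = 0.051), Col18a1 (0.081), Col2a1 (0.078), Col5a2 (up to 0.057) and Col27a1 (up to 0.19) were lost. Col5a2 and Col27a1 were also lost without Q22 double knock-in 3, as were Col11a1 (0.076) and Col25a1 (up to 0.056). Col25a1 was also lost without Q33 double knock-in 2, and Col27a1 without Q22 double knock-in 2.

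Against TDP-43, Col11a2, Col1a2, Col23a1 and Col6a1 passed in all 6 fits. The count fell from 14 to 8 without TDP-43 1, 4 without TDP-43 3 and 5 without Q33 double knock-in 1, and the share of all genes from 12.6% to 5.56%, 3.51% and 2.6%. With only the 6 libraries compared, 4 members and 1.33% of all genes were called. Without TDP-43 3 the other 10 calls were lost. Without Q33 double knock-in 1 the same was true except for Col18a1. Col5a2 and Col27a1 were also lost without TDP-43 1, and Col5a2 without Q33 double knock-in 2. Col11a1, Col12a1, Col20a1 and Col25a1 were lost in 5 of the 6 fits, all but the one without TDP-43 2 (adjusted p up to 0.25). The call of Col1a2 against Q33 was lost without Q33 1, Q33 2 or Q33 double knock-in 1 (adjusted p up to 0.18). Over 6 genotypes the count was 0 without Q33 double knock-in 1, 4 without Q33 double knock-in 2 or 3, and 13 without TDP-43 2. The share of all genes called was 0.307%, 1.47% (without Q33 double knock-in 2), 2.93% (without 3) and 7.37% in these fits, rather than 4.16%.

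Genes that act on collagen were read from 6 lists. Beside the counts of every list, 6.39% of all tested genes fell and 5.68% rose in the Q33 double knock-ins against NTg. Of 20 genes for modification and folding, 3 fell and 2 rose against NTg in the Q33 double knock-ins, with a median log2 fold change of -0.06. The smallest adjusted p-values were those of Colgalt2, which adds galactose to hydroxylysine, at -0.77 ± 0.15 (0.0048, edgeR), and P4ha3, a prolyl hydroxylase subunit, at -1.25 ± 0.25 (0.0055). P4ha3 had 12.7 ± 1.67 CPM (SD, n = 3) in NTg and 5.37 ± 2.15 in the Q33 double knock-ins.

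Of 14 genes for propeptide removal and cross-linking, 4 fell and 0 rose, with a median of -0.08. Pxdn, the peroxidase that cross-links type IV collagen, had 26.2 ± 0.568 CPM (SD, n = 3) in NTg and 14.2 ± 0.838 in the Q33 double knock-ins, at -0.88 ± 0.15 (adjusted p = 0.0017, edgeR). Loxl2, a lysyl oxidase of basement membranes, was at -1.36 ± 0.27 (0.0044). Of 14 tested fibril-associated matrix genes 2 fell and 0 rose (median -0.22): Tnxb, a tenascin that links fibers, at -1.43 ± 0.27 (0.0035), and Prelp, a leucine-rich proteoglycan, at -1.69 ± 0.35 (0.0062).

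Of 12 partners of type IV collagen in the basement membrane, 2 fell and 1 rose (median -0.05). Nid1, which joins laminin to type IV collagen, fell from 26.5 ± 4.78 CPM (SD, n = 3) in NTg to 10.2 ± 3.2, at -1.38 ± 0.22 (adjusted p = 0.001, edgeR). Lamb1, a laminin chain, was at -0.98 ± 0.22 (0.0093). Of 12 collagen receptors 3 fell and 0 rose (median -0.20), among them Ddr2, a receptor tyrosine kinase for fibrillar collagen, at -0.90 ± 0.17 (0.0036), and the integrin chain Itga2 at -2.87 ± 0.67 (0.011). Of 10 tested genes for collagen breakdown and its inhibitors, 0 were called against NTg (median -0.01).

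Markers of cell types were set beside these values, with collagens left out. Calls and medians are against NTg unless another genotype is named. In that comparison 6.39% of all tested genes fell and 5.68% rose. Sums are given for NTg and the Q33 double knock-ins, and for other genotypes where named. Of 20 markers of meningeal and perivascular fibroblasts 12 could be tested: 1 rose (Igfbp2), 0 fell, and the median was 0.29 against NTg. Their summed level was 70.0 to 73.3 CPM in NTg and 74.9 to 91.9 in the Q33 double knock-ins. Between 1 and 4 of the 20 were at 0 in an NTg library and 2 to 3 in a Q33 double knock-in library. Slc13a4 and Slc22a6 were at 0 in 2 of the 3 Q33 double knock-ins and in 0 NTg libraries, and Slc47a1 in 1 and 0. Dpep1 was at 0 in 1 Q33 double knock-in and 3 NTg libraries, Crabp2 in 1 and 2, Foxc2 in 1 and 1, and Igf2 and Slc22a2 in 0 and 1. Of 12 endothelial markers 3 rose (Cldn5, Tie1 and Ly6c1) and 0 fell, with a median of 0.60 and sums of 148 to 231 CPM in NTg and 231 to 324 in the Q33 double knock-ins. In the other genotypes their median against NTg was 0.23 (Q22) to 0.36 (Q33). For the Q33 double knock-ins against the Q22 double knock-ins, TDP-43 or Q33, 0 of the 12 were called. No endothelial marker was at 0. Of 11 tested pericyte and smooth muscle markers 2 rose (Acta2 and Myh11) and 0 fell (median 0.16, sums of 121 to 161 and 152 to 235 CPM), and Cnn1 was at 0 in 2 NTg libraries. Of 8 neuron markers 4 rose and 1 fell, with sums of 4153 to 5039 CPM in NTg and 5935 to 7755 in the Q33 double knock-ins. Oligodendrocyte marker sums were 13410 to 15024 and 9841 to 12296 CPM (0 rose and 1 fell of 6), and microglia sums 235 to 293 and 179 to 205 CPM (0 rose and 2 fell of 6). Of 6 astrocyte markers 0 rose and 2 fell (Gfap and Aqp4), with sums of 7659 to 7995 and 6316 to 7775 CPM. Schwann cell marker sums were 52.3 to 62.5 CPM in NTg and 38.4 to 44.0 in the Q33 double knock-ins, without overlap, and of 3 tested 0 rose and 1 fell (Drp2). The Q33 sums, 42.2 to 50.0 CPM, overlapped those of the Q33 double knock-ins. The Schwann cell marker Pmp2 was at 0 in all 6 NTg and Q33 double knock-in libraries. Of 4 tested cartilage and bone markers 1 rose and 0 fell (median 0.07), with sums of 30.8 to 43.9 CPM in NTg and 54.1 to 58.7 in the Q33 double knock-ins. The sums of Q33 (44.1 to 57.6 CPM) and TDP-43 (34.8 to 59.6 CPM) overlapped those of the Q33 double knock-ins. Against TDP-43, 0 of the 4 rose and 1 fell, and against the Q22 double knock-ins 1 rose and 0 fell. Matn3 was at 0 in 3 Q33 double knock-in and 0 NTg libraries, Matn1 in 1 and 0, Bglap in 2 and 3, Chad in 0 and 2, and Ibsp in 0 and 1. The part of all these cell types in the collagen values was not tested.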

How the data were processed

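Whole spinal cord RNA of 18 mice was sequenced from rRNA-depleted, stranded total RNA libraries, per the labels' protocols. The deposited values are whole-number counts per gene, made by the authors with featureCounts 1.6.1 on GENCODE M19 exons of mm10 with strand setting 1, per the file headers. Trim Galore 0.4.1, TopHat2 and DESeq2 are named in the submitters' processing notes. Pairs that match several genes were not counted, which undercounts genes with overlapping exons on the same strand. The table also gives each gene's summed exon length, used here for RPKM.

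From the deposited counts, CPM was scaled by edgeR's effective library size, with TMM factors of 0.861 to 1.109, RPKM divided CPM by exon length in kilobases, and symbols were matched for 54409 of 54446 IDs. Counts of 18 libraries were fitted in R 4.3.3 with limma 3.58.1 and edgeR 4.0.16 by quasi-likelihood (two-sided), in 1 fit with a term per genotype, after edgeR's low-count filter, which kept all 39 members. Benjamini-Hochberg adjustment ran over 20635 genes within each of 11 comparisons of 2 genotypes, 2 interactions and 1 test over 6 genotypes. SEs are the log2 fold change over the root of the F statistic. SD describes the spread between the animals of a group. SE describes the uncertainty of a fold change in the shared fit of 18 libraries, not the spread of the animals compared. Limits from a count of 0 cover counting error only. The test was checked on simulated data with known changes in the Q33 double knock-ins against NTg. It recovered 30% of 1.5-fold, 61.2% of 2-fold and 90% of 4-fold changes, with 6 false calls over 20264 genes. Most 1.5-fold changes were thus missed in the simulated data. Only 80, 80 and 40 genes were changed there by 1.5, 2 and 4 fold. In the real comparison 12.1% of all genes were called, so recovery in these data can differ. Alternatives were library totals, no filter, DESeq2 1.42.0, no mitochondrial ribosomal RNA, fits of 6 libraries, and each library left out. Terms for the caudal Hox score or sex (Y-linked genes above 10 CPM) were also tried. Libraries of a genotype are numbered by accession, which only names them. Within a genotype no 2 libraries held identical values.

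Members called in any comparison and the highest member per length of each class were described with their values, the others by range, and for each pathway list the 2 genes with the smallest adjusted p in the comparison described. The members, classes and lists were chosen with earlier results of these data known. Promoter sequences are RefSeq's (GRCm38.p6).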

Additional observations from a re-analysis of the deposited data

How the results depend on the processing

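No member called in a comparison of 2 genotypes reversed its direction under any alternative run. Of the 41 such calls, DESeq2, no filter and leaving out mitochondrial ribosomal RNA each kept 41. Library totals kept 40, a term for sex 39, fits of 6 libraries 26 and a term for the caudal Hox score 20. In refits of these calls without 1 library each, 174 passed and 72 did not. Library totals moved the median of all genes to -0.25 against NTg and to -0.15 against Q33, so changes are best read relative to that shift; all genes then split into 206 higher and 3940 lower against NTg, where TMM gave 1173 and 1318.

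Counts of called members that differed from the reported count by over 1.5 times were as follows, and the others were within it (11 to 17 against NTg and 12 to 15 against the Q22 double knock-ins and 13 to 15 against TDP-43, leaving no single library out). For the Q33 double knock-ins against Q33, main count 1, they were 2 with library totals, 6 with no filter (Col1a2, Col12a1, Col23a1, Col2a1, Col6a1 and Col6a4), 2 with a term for sex, 5 with DESeq2 and 3 with only the 6 libraries compared. The last 3 were Col12a1, Col23a1 and Col6a1, and Col1a2 was not called there. In the order given, the share of all genes called in these settings was 1.92%, 2.92%, 0.795%, 6.77% and 0.506%, rather than 0.892%. Over 6 genotypes the main count was 7. The counts of called members were 12 with library totals, 17 with no filter, 0 with a term for the caudal Hox score and 15 with DESeq2. The share of all genes called was 7.49%, 7.68%, 0.485% and 14.1% there, rather than 4.16%. With that Hox score term, 5 members passed against NTg and 2 against TDP-43, where 4 passed with only the 6 libraries compared. With no filter, Col6a6 passed for Q22 against NTg (1 member), Col23a1 for Q33 against NTg (1 member), and Col23a1 and Col6a1 for the interaction of Q33 with TDP-43 (2 members). Of all genes, 0.607%, 1.04% and 1.36% passed there with no filter, rather than 0%. Leaving out 1 library at a time gave 6 to 11 against NTg, 8 to 14 against the Q22 double knock-ins, 4 to 16 against TDP-43, 0 to 1 against Q33 and 0 to 13 over 6 genotypes. The cause of these moves was not tested. Under DESeq2, 9 members had no adjusted p against Q33 and 35 for the interaction with Q33.

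No paired analysis was possible because replicate numbers follow accession order and pair no animals. Members near the level minimum rest on few counts: Col6a6 and Col6a4 had as few as 7 in a library. Mitochondrial ribosomal RNA, sex and the caudal Hox score differ between genotypes. With 3 animals a group, terms for them can separate these from genotype only to a limited degree.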
